A study of Mus musculus with 2 samples.

Results

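The cytosolic ribosomal protein genes were taken from the RNA sequencing of mouse cavernous endothelial cells (MCECs) by their symbols. A symbol was a member if it began with Rpl or Rps and a digit, or was Rplp0, Rplp1, Rplp2, Rpsa or Fau, while pseudogene symbols with -ps and the Rps6k kinases were left out. This gave 89 of the 23183 gene symbols. Of these, 46 are core genes of the large subunit and 32 are core genes of the small subunit, 78 in all, and the other 11 are paralogs, retrogenes or symbols of similar spelling. All 78 core genes and 9 of the 11 others passed the filter on low values (a mean log2 value of at least 1).

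MCECs are cultured from the corpus cavernosum of the mouse penis. The condition HG+HBS is high glucose (HG) with HEPES-buffered saline, the vehicle, and HG+PC-NVs is high glucose with PC-NVs, vesicle-like particles made by pressing cultured mouse cavernous pericytes through filters. Both groups share the high glucose. The labels give 5 days of glucose, whereas the study's methods give a shorter time, with the vesicles present in its last part, and they name adult male C57BL/6J mice as the animals of the study, with numbers of mice for each kind of experiment but not for these 2 libraries. Each condition is 1 library, so no difference below has a replicate check, no p-value can be computed, and an effect of PC-NVs cannot be told apart from a difference between the cultures.

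The ribosome translates mRNA into protein. Its small subunit reads the mRNA and its large subunit joins the amino acids, and each is a frame of ribosomal RNA covered by ribosomal proteins, nearly all present as a single copy per ribosome. Their mRNAs are among the most abundant of growing cells. In vertebrates these mRNAs begin with a run of pyrimidines, the TOP motif, through which the mTOR kinase controls their translation.

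The values are FPKM, fragments per length of transcript and depth of library, as normalized by the study, with the transcript entries of a symbol summed. A log2 ratio is the log2 of (FPKM + 1) in HG+PC-NVs minus that in HG+HBS, and a gene is said to have risen or fallen where the difference was more than 1.2-fold on this scale, a log2 ratio past 0.26 in size. The libraries hold roughly 13300000 and 11700000 fragments, estimated from the smallest steps of the FPKM values. A core gene rested on about 15 to 84721 fragments with HBS and on 27 to 80143 with PC-NVs. These counts, and the intervals drawn from them, assume the length of 1 reference transcript per gene. The length behind each deposited FPKM was not determined. The highest count is that of a gene with a reference transcript of 3706 nt. Where a sentence gives a pair of values, the first is that of HG+HBS.

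The defining endothelial markers were low in both libraries. Pecam1 was at 1.05 FPKM with HBS and 0.938 FPKM with PC-NVs, Cdh5 at 5.05 and 5.73 FPKM, and Kdr, Tek, Tie1, Vwf, Cldn5, Emcn and Erg were each under 1 FPKM. The highest of the list were Esam, which fell from 17.4 to 11.7 FPKM (-0.535), and Egfl7 with 9.5 and 8.6 FPKM (-0.13). Flt1 had 1.2 and 0.84 FPKM (-0.25). The filter was passed by 4 of the 12 endothelial markers, against 8 of 8 fibroblast markers, and of the 4 only Esam passed the threshold. The summed level of the 12 endothelial markers was 36.4 and 29.4 FPKM and that of the 8 fibroblast markers 3347 and 3289 FPKM. Within the fibroblast list Dcn alone rose, from 623 to 1283 FPKM, 5 genes fell, and the median log2 ratio was -0.33. Over all symbols tested 15.6% rose and 16.0% fell, the shares to set beside each count of this paragraph. Of the 10 mural markers 7 passed, 3 rose and 3 fell, with a summed level of 117 and 92.2 FPKM. Of the 9 leukocyte markers 7 passed, 2 rose and 2 fell, with a summed level of 303 and 523 FPKM. Cd14 rose from 36.7 to 252 FPKM and Adgre1 from 7.44 to 42.5 FPKM, while Cd68 fell from 36.2 to 26.4 FPKM and Csf1r from 8.39 to 6.20 FPKM. Lyz2, the highest of the list with HBS, had 212 and 193 FPKM (-0.13). What part these cells have in the ribosomal protein values was not tested, and in bulk RNA fewer cells of a type and less RNA per cell cannot be told apart.

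With the values as deposited, the core ribosomal protein genes were an abundant block that hardly differed between the libraries. With HBS they ranged from 3.19 to 3740 FPKM and with PC-NVs from 6.68 to 4013 FPKM, 72 of the 78 were at 200 FPKM or more, and 41 were at 1000 FPKM or more in both libraries. They made up 42 of the 78 symbols over 1000 FPKM with HBS and 45 of the 94 with PC-NVs. The order of the genes was nearly the same in both libraries, with Pearson's r of 0.997 between the log2 levels and Spearman's rho of 0.994, across 78 genes of the same 2 libraries and as a description only.

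**Figure D1:**
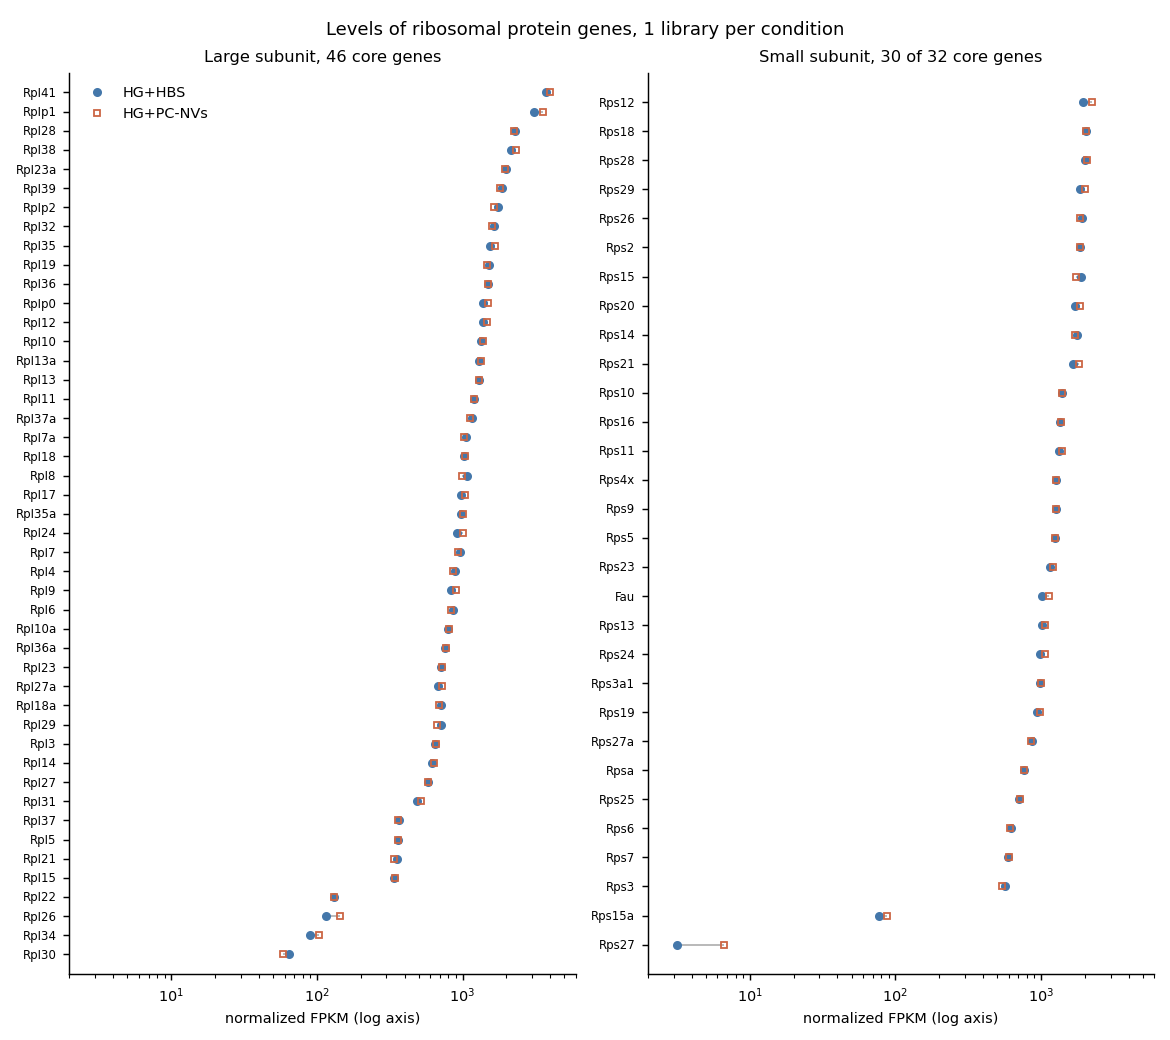
Normalized FPKM (horizontal log axis) of each core gene of the large subunit (left, 46 genes) and the small subunit (right, 30 of the 32 genes, with 2 left out that are not reported here), ordered by mean level, with a filled circle for HG+HBS, an open square for HG+PC-NVs and a grey line between them. The symbols of a gene nearly coincide except for Rps27, and 6 genes stand below 200 FPKM.

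The median log2 ratio of the 78 core genes was 0.02, with quartiles of -0.03 and 0.09, and 48 lay above 0 and 30 below. Past the 1.2-fold threshold, 2 core genes were higher, Rps27 and Rpl26, and 0 were lower. Over all 11785 symbols tested, 15.6% were higher and 16.0% were lower by the same rule, and over the 1175 symbols at 64 FPKM or more in both libraries 15.4% and 7.32%. At a threshold of 1.5-fold 1 core gene was higher and 0 lower (all symbols 5.33% and 3.57%), and at 1.1-fold 9 were higher and 0 lower (27.7% and 29.4%). The distance between the quartiles was 0.12 for the core genes, 0.33 for all symbols tested and 0.26 for the symbols at 64 FPKM or more. Such a spread was not particular to the core genes. It was 0.11 for the 26 genes listed with RNA polymerases I and III and 0.12 for the 8 listed with the elongation factors. The other lists taken up below ranged from 0.15 (5S particle and p53 pathway) to 0.38 (common reference genes).

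The subunits had similar ratios, the median of each lying between the quartiles of the other. The 46 genes of the large subunit had a median level of 965 FPKM with HBS and 1003 FPKM with PC-NVs, and the 32 genes of the small subunit had 1257 and 1275 FPKM. Their median log2 ratios were 0.01, with a range from -0.14 to 0.30, and 0.02, with a range from -0.11 to 0.88. Above 0 lay 26 of 46 large and 22 of 32 small subunit genes.

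**Figure D2:**
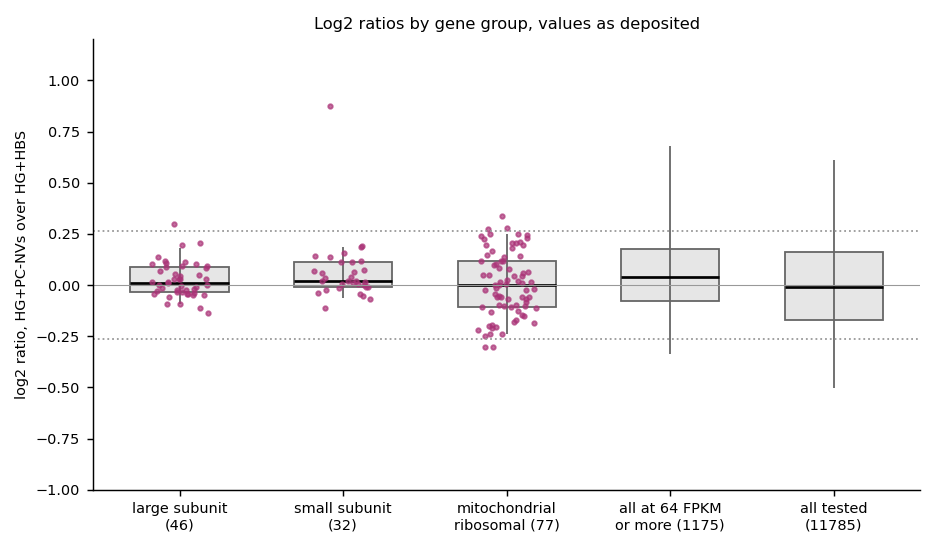
Log2 ratios of HG+PC-NVs over HG+HBS for the core genes of each subunit, the mitochondrial ribosomal protein genes, the symbols at 64 FPKM or more in both libraries and all symbols tested, as median (thick line), quartiles (box) and 5th to 95th percentile (thin line), with points for single genes and dotted lines at a 1.2-fold difference. The boxes of both subunits are narrower than the others, and a point of each subunit, Rpl26 and Rps27, lies above the upper dotted line.

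The mitochondrial ribosomal proteins, which build the separate ribosome of mitochondria, were taken for comparison after the values were seen. Their 77 genes had a median log2 ratio of 0.00, a distance between quartiles of 0.23, 3 genes higher and 2 lower (all symbols 15.6% and 16.0%). Their range ran from -0.30 to 0.34.

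The direction of the group's median depended on how the libraries were scaled. With quantile normalization between the libraries the medians were -0.18 for the large and -0.14 for the small subunit, against -0.04 for all symbols tested and -0.07 for symbols at 64 FPKM or more, with 1 core gene higher and 7 lower (all symbols 14.0% and 18.0%). With the summed FPKM made equal they were -0.14 and -0.13, against -0.15 for all symbols, with 1 higher and 3 lower (all symbols 9.4% and 30.7%). Upper-quartile scaling gave -0.02 and -0.01, against -0.04 for all symbols, and median centring gave 0.02 and 0.03. The core genes thus lay within 0.03 of the median of all symbols in each of these settings but quantile normalization, in which they lay below it. Against the symbols at 64 FPKM or more, the median of the 78 core genes was lower in every setting. It was 0.016 against 0.039 as deposited and -0.138 against -0.114 with equal summed FPKM. Upper-quartile scaling gave -0.019 against 0.005, and median centring 0.025 against 0.048.

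**Figure D3:**
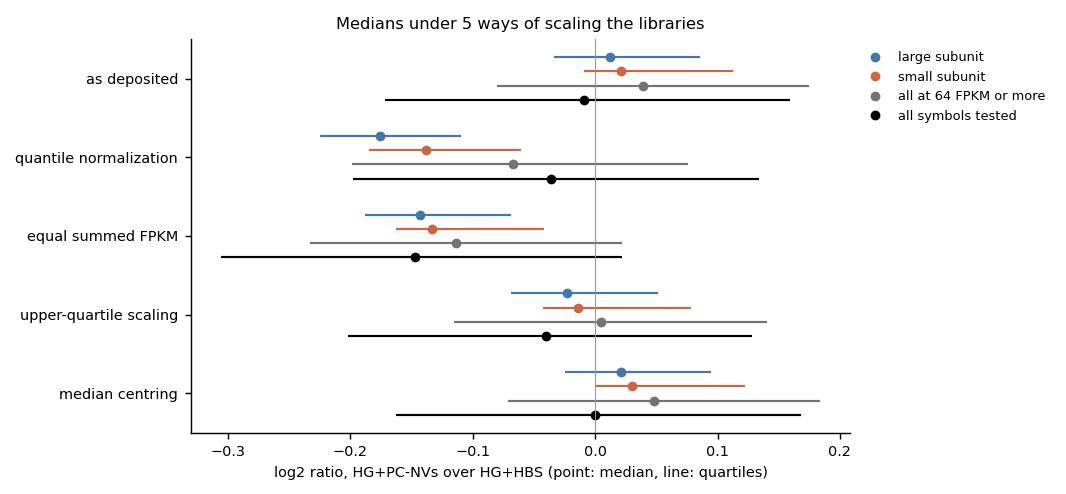
Median log2 ratio (points) and quartiles (lines) of the large subunit, the small subunit, the symbols at 64 FPKM or more and all symbols tested, under 5 ways of scaling the libraries. The medians of both subunits are near 0 in the top and in the lowest 2 settings and at or below -0.13 in the others, quantile normalization and equal summed FPKM.

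With the values as deposited, the group's share of all FPKM was lower in HG+PC-NVs, while its sum was not. On that scale the summed FPKM of all symbols was 521666 with HBS and 580717 with PC-NVs. With these totals made equal, the sum of the core genes follows their share by construction. The summed FPKM of the core genes was 89805 with HBS and 92061 with PC-NVs, a log2 ratio of sums of 0.04. The other symbols together had 431861 and 488656 FPKM, a log2 ratio of 0.18. The core genes accordingly took 17.2% of the summed FPKM with HBS and 15.9% in HG+PC-NVs, with 9.63% and 8.85% from the large subunit and 7.59% and 7.00% from the small subunit.

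Among the highest genes of the large subunit, Rpl41, which encodes a very short basic protein, had 3740 FPKM with HBS and 4013 FPKM with PC-NVs (log2 ratio 0.10). Rplp1, a protein of the P-stalk that recruits the elongation factors, had 3093 and 3569 FPKM (0.21). As deposited, this was the highest ratio among core genes at 200 FPKM or more. Rpl28 had 2289 and 2257 FPKM (-0.02). The other P-stalk genes went different ways, Rplp0, the stalk's base, with 1380 and 1499 FPKM (0.12), and Rplp2, the partner of Rplp1, with 1757 and 1647 FPKM (-0.09). None of the 3 passed the threshold. With quantile normalization all 3 lay below 0, Rplp1 at -0.229, Rplp0 at -0.052 and Rplp2 at -0.204. Rplp1 was then below the median of the large subunit (-0.176). The lowest ratios of the subunit after that of Rpl30 were those of Rpl8, close to the catalytic centre, with 1070 and 992 FPKM (-0.11), Rpl29 with 715 and 670 FPKM (-0.09), Rplp2 and Rpl21 with 354 and 340 FPKM (-0.06). Rpl24, at the contact with the small subunit, had 921 and 1014 FPKM (0.14).

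Rpl5 and Rpl11 bind the 5S ribosomal RNA and, when ribosome assembly fails, the p53 regulator Mdm2. Rpl5 had 363 FPKM with HBS and 361 FPKM with PC-NVs (-0.01), and Rpl11 had 1204 FPKM in both (0.00). Of the 10 genes of the list of the 5S particle and p53 pathway 9 were measured, and 0 rose and 0 fell (all symbols 15.6% and 16.0%), with a median of 0.01. Its extremes were Rrs1, an assembly factor of the 5S particle, with 21.5 and 25.0 FPKM (0.21), and Gltscr2 (Nop53) with 75.6 and 64.4 FPKM (-0.23).

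In the small subunit the highest genes were Rps12 with 1950 and 2222 FPKM (0.19), Rps18 with 2049 and 2048 FPKM (0.00) and Rps28 with 1997 and 2052 FPKM (0.04). Next to Rps27, Rps12 and Rps15a, the highest ratio was that of Fau with 1018 and 1134 FPKM (0.16). The lowest were those of Rps15, which reaches the decoding site, with 1869 and 1731 FPKM (-0.11), Rps3, at the mRNA entry, with 564 and 537 FPKM (-0.07), Rps26, at the mRNA exit, with 1921 and 1848 FPKM (-0.06), and Rps14 with 1771 and 1720 FPKM (-0.04). All of these lay within the threshold.

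Fusion genes carry ubiquitin or a relative of it ahead of the ribosomal protein. Fau, with a ubiquitin-like part, is given above, and Rps27a, with ubiquitin, had 868 and 853 FPKM (-0.02).

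Counting error was of the size of many of these log2 ratios. From the estimated fragments, the median distance to either bound of the 95% Wilson interval of a log2 ratio was 0.04, and it covers counting error only. With the values as deposited the interval held 0 for 36 of the 78 core genes, lay above 0 for 31 and below 0 for 11. For many genes, but not all, the side of 0 depended on the scaling. Above 0 were 48 of the 78 ratios as deposited, 5 with quantile normalization and 7 with equal summed FPKM, and 71 were below 0 in each of these 2 settings. Rpl8 stayed below 0 in both (-0.35 and -0.27) and Rpl26 above it (0.23 and 0.14).

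The calls of Rps27 and Rpl26 came from genes far below the rest. Under 200 FPKM were 6 core genes, and their log2 ratios ranged from -0.14 to 0.88, against -0.11 to 0.21 for the 72 others, of which 0 passed the threshold in either direction. These 6 were chosen by level after the values were seen. Rps27 rose from 3.19 to 6.68 FPKM (0.88), on about 15 and 27 fragments, with a 95% interval from 0.14 to 1.94. The intervals leave out the pseudocount, which matters at this low level. With a pseudocount of 0.1 FPKM the ratio of Rps27 was 1.045. Rpl26 rose from 116 to 143 FPKM (0.30, interval 0.16 to 0.44), a call lost with quantile normalization (0.23) and equal summed FPKM (0.14). The values of the others were 89.8 and 103 FPKM for Rpl34 (0.20), 76.7 and 87.4 FPKM for Rps15a (0.19), 131 and 130 FPKM for Rpl22 (-0.01) and 64.8 and 58.8 FPKM for Rpl30 (-0.14), the lowest ratio of all core genes.

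For 4 of these 6 the files also list a near-identical copy, and the copy held the larger part of the FPKM. The copies are intronless genes or pseudogenes, made when an mRNA was copied back into the genome, and reads from the stretches they share cannot be told apart. Rps27 lies at chr3:90212522-90213651 (GRCm38, minus strand) and its retrogene Rps27rt at chr9:114982366-114982739 (minus strand). Of the windows of 50 nt in the Rps27 transcript, 98.6% also occur in other genes, and the 252 nt of coding sequence of both genes are identical at 252 positions, which is why the sequence is shown a single time, in lower case since no base differs.
Rps27: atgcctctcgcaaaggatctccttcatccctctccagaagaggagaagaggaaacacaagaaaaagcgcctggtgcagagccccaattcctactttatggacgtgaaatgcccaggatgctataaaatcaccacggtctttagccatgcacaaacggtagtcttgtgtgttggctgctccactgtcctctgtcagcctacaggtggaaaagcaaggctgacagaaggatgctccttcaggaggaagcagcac

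The processed pseudogenes Gm15772 (chr5:3236431-3236868, plus strand), Gm12191 (chr11:49678710-49679057, minus strand) and Rpl34-ps1 (chr6:71124610-71124963, plus strand) are the copies of Rpl26 (chr11:68901583-68906989, plus strand), Rpl30 (chr15:34440505-34443640, minus strand) and Rpl34 (chr3:130726831-130730398, minus strand). Of the windows of 50 nt in the transcripts of Rpl26, Rpl30 and Rpl34, 60.6%, 47.8% and 50.6% also occur in these copies, and the rest do not. The copies match the coding sequence of their gene at 433 of 435, 344 of 345 and 349 of 351 positions. The 61 nt around the first mismatch of each pair show how alike the pairs are there, with the base that differs in capitals (GENCODE M21 transcripts, GRCm38, gene strand, coding positions 147 to 207 for Rpl26, 66 to 126 for Rpl30 and 102 to 162 for Rpl34).
Rpl26: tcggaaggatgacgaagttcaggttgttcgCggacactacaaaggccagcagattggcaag
Gm15772: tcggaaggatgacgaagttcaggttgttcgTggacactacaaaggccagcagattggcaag
Rpl30: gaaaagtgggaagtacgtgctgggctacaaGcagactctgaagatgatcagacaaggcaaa
Gm12191: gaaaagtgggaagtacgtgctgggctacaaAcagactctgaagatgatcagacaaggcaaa
Rpl34: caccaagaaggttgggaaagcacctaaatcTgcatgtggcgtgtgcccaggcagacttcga
Rpl34-ps1: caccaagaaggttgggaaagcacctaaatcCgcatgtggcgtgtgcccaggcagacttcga

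Rps27rt stood at 2321 FPKM with HBS and 2425 FPKM with PC-NVs, against the single digits of Rps27. Gm15772 had 1671 and 1682 FPKM, Gm12191 had 988 and 1050 FPKM, and Rpl34-ps1 had 1101 and 1086 FPKM. With each gene summed with its copy, the log2 ratios were 0.06 for Rps27, 0.03 for Rpl26, 0.07 for Rpl30 and 0.00 for Rpl34, and all 4 sums lay between 1053 and 2432 FPKM, in the range of the other core genes. With every core gene summed with the listed symbols that share at least 30% of its windows, an alternative added after the data were seen, 0 core genes were higher and 0 lower, and the range was -0.11 to 0.21. Whether reads were divided between gene and copy by the aligner or the counter was not tested, and how shared reads were counted is not given in the sources used here.

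**Figure D4:**
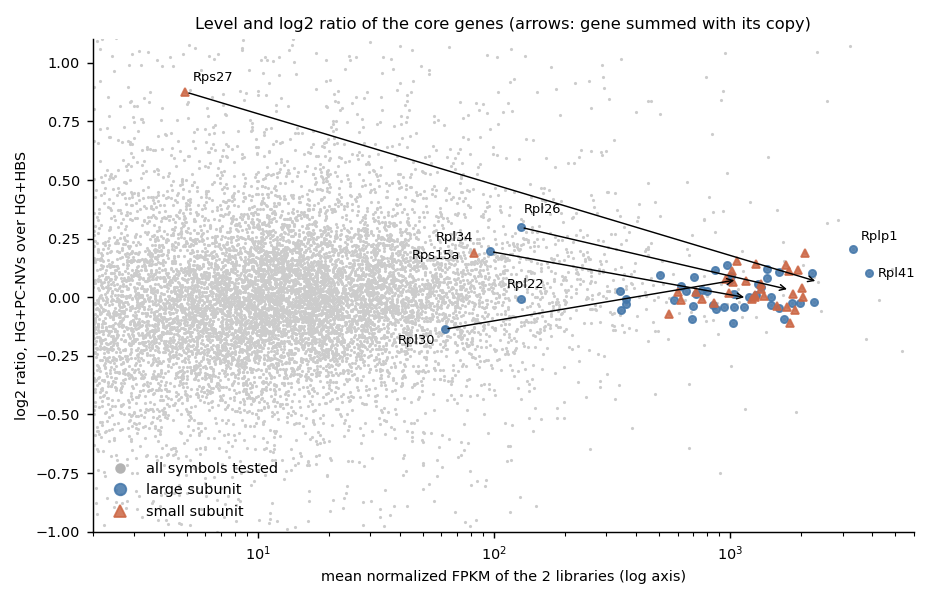
Log2 ratio against the mean normalized FPKM of both libraries (log axis) for the core genes of the large subunit (circles), the small subunit (triangles) and all symbols tested (grey, those within the axes), with arrows from 4 genes to the value summed with their copy. The low genes Rps27, Rpl26, Rpl34 and Rpl30 move into the block of the other core genes when summed with their copies.

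The remaining 2 of the 6, Rps15a and Rpl22, have no listed copy of high level. Rps15a-ps6, which shares 32.1% of the windows of Rps15a, was at 8.05 and 9.48 FPKM. Their longest coding transcripts, 5179 nt and 2051 nt, are several times as long as the 640 nt and 474 nt used here as reference, and FPKM divides by the length of the model. Which model the entries used, and its part in the low level, was not tested.

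The other symbols that the rule takes in are mostly paralogs, and they were lower than the core gene they resemble except where the core gene was itself low. Rpl36al, a paralog of Rpl36a with 87.7% of the coding sequence identical, rose from 284 to 342 FPKM (0.27), while Rpl36a had 757 and 773 FPKM (0.03). The call of Rpl36al was lost with quantile normalization (0.03), equal summed FPKM (0.12) and upper-quartile scaling (0.24). Rpl22l1, a paralog of Rpl22 with 65.1% identity, had 89.0 and 94.4 FPKM (0.08), 40.4% and 42.0% of the sum of the pair. Rps27l had 480 and 476 FPKM (-0.01), with 76.2% identity to Rps27. Rps4l had 75.8 and 68.7 FPKM (-0.14), 5.63% and 5.12% of the sum with Rps4x.

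Rpl7l1 had 35.9 and 38.8 FPKM (0.11) and Rpl39l 1.12 and 1.32 FPKM (0.13), on about 8 fragments in either library. Rpl3l, the paralog of Rpl3 known from striated muscle, and Rpl10l, known from the testis, were listed at 0 in both libraries. Rpl37rt, a retrogene that matches Rpl37 at 290 of 291 coding positions, fell from 2.70 to 0.835 FPKM (-1.01), on about 11 and 3 fragments, while Rpl37 had 366 and 359 FPKM. Rps19bp1, which encodes a binding partner of Rps19 and no ribosomal protein, had 29.8 and 35.0 FPKM (0.22).

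Of the core genes, 11 have several transcript entries, 31 in all, and in these the lesser entries differed from the main one. In 9 of the 11 the highest entry took a smaller share of the gene in HG+PC-NVs, against 46.1% of the 3575 symbols with several entries, and among the 7 of these genes at 200 FPKM or more it did so in 7. Of their 15 lesser entries that passed the filter, 10 were higher and 0 lower past the threshold, 66.7% and 0%. The shares were 30.3% and 28.0% of the 2820 lesser entries of all symbols. For symbols at 64 FPKM or more in both libraries they were 33.2% and 23.5% of 464. These entry counts are given for the values as deposited only, and a ratio near the threshold can lose its call under another scaling. The genes below were named after these values were seen.

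Rps24, whose spliced forms differ at the end of the protein, had 571 and 545 FPKM in its highest entry (-0.07), 298 and 403 FPKM in the second (0.44), and 111 and 112 FPKM in the third (0.01). Fau had 917 and 980 FPKM in the highest (0.10) and 95.6 and 141 FPKM in the second (0.56). Rpl38 had 1288 and 1280 FPKM (-0.01) and then 672 and 814 FPKM (0.28), and Rpl35a had 819 and 834 FPKM (0.03) and then 138 and 171 FPKM (0.30). Rpl30 was the only gene of the 11 with a highest entry that fell, from 37.7 to 28.5 FPKM (-0.39). The files name the entries by gene symbol alone, so which transcript each entry stands for was not determined here.

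**Figure D5:**
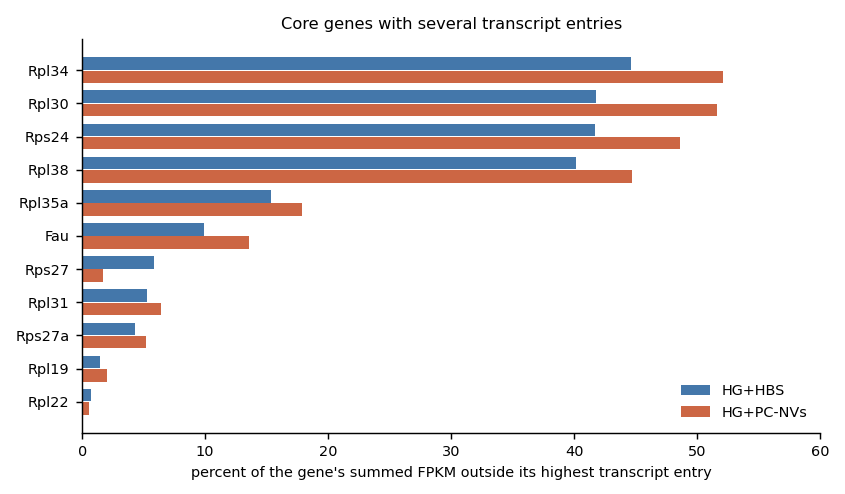
Percent of the summed FPKM of a gene that lies outside its highest transcript entry, for the 11 core genes with several entries, in HG+HBS and HG+PC-NVs. The bar of HG+PC-NVs is the longer in 9 genes, among them Rps24, Rpl38 and Fau, and the shorter in Rps27 and Rpl22.

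Near their annotated starts the core genes carry a run of C or T more often than genes in general. The search below also takes in bases before the start, so a run found need not be a TOP motif. Of the 78, 58 have an entry in the RefSeq promoter table of GRCm38.p6. A run of at least 8 letters that are all C or T, within 50 bases on either side of an annotated start and on the strand of the gene, was found in 49 of these 58 genes (84.5%), against 39.3% of all 27025 genes of the table. On the opposite strand the shares were 24.1% and 41.1%. The letters CTTTCC, which can lie inside such a run, occurred in 31.0% of the core genes and 5.4% of all genes on the gene strand, in 1.7% and 5.1% on the other, and in 32.8% and 10.3% on either.

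A C or T stood at the annotated start itself in 30 of the 58 core genes (51.7%), against 33.2% of all genes of the table, and belonged to a run of 5 letters or longer in 21 (36.2%), against 11.8%. Printed here are 30 bases around the start of 6 of them, with 15 bases before it and the run that includes it in capitals (RefSeq, GRCm38.p6, gene strand). These 6 were picked after the values were seen, for a clear run and from both subunits. Capitals among the first 15 bases lie before the annotated start, so the run does not have to begin there. The run of Rpl27a has 20 letters and goes on past the bases printed.
Rpl7a, chr2:26910792-26910821, plus strand: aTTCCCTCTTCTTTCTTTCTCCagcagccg
Rpl27a, chr7:109519180-109519209, plus strand: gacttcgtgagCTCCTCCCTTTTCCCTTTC
Rpl35, chr2:39005117-39005146, minus strand: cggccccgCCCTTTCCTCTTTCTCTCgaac
Fau, chr19:6057932-6057961, plus strand: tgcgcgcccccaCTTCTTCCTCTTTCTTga
Rps10, chr17:27635230-27635259, minus strand: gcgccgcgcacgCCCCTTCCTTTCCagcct
Rps18, chr17:33955651-33955680, minus strand: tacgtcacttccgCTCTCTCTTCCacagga

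The run did not divide the genes by their ratio. The median log2 ratio was 0.03 for the 49 genes with it, 0.02 for the 9 without it and -0.03 for the 20 that the table does not hold. The 6 genes printed had ratios from -0.04 for Rpl7a to 0.16 for Fau. A match says nothing of the use of the start in these cells.

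Other properties did not divide the core genes either. The 30 genes with a small nucleolar RNA inside, which guides the modification of ribosomal RNA, had a median of 0.01 and the 48 others 0.03. The 4 X-linked genes Rpl10, Rpl36a, Rpl39 and Rps4x ranged from -0.03 to 0.05. Across the 78 genes of the same 2 libraries, Spearman's rho with the log2 ratio was 0.04 for level, -0.16 for transcript length, -0.03 for GC content and 0.20 for the share of windows found in other genes, as descriptions with no test.

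Of the genes around the ribosome few passed the threshold, and the counts are to be read against the 15.6% of all symbols that were higher and the 16.0% that were lower. With equal summed FPKM more of them passed as lower, against 30.7% of all symbols. They were 8 of the 50 biogenesis factors, 6 of the 26 genes listed with the polymerases and 8 of the 21 genes of mTOR and translation control. Of the 24 other TOP mRNAs, 2 rose and 2 fell, with a median of 0.02. Snhg6, a host gene of small nucleolar RNAs, rose from 59.8 to 84.2 FPKM (0.49), and Vim, the intermediate filament vimentin, fell from 2230 to 1588 FPKM (-0.49). Of the 8 genes listed by symbol with the elongation factors the median was 0.03. The 1 that rose was Eef1e1, from 26.6 to 32.2 FPKM (0.27). The 1 that fell was the kinase Eef2k that inhibits Eef2, from 6.98 to 4.50 FPKM (-0.54). Neither is an elongation factor itself, and the other genes of the list ranged from -0.07 for Eef1g to 0.12 for Eef1a1. With quantile normalization the medians of these 2 lists, which share genes, were -0.126 (other TOP mRNAs) and -0.145 (elongation factors). The core genes then had -0.16 and all symbols -0.036. The other lists around the ribosome ranged from -0.091 (mTOR and translation control) to 0.001 (initiation factors).

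Of the 34 initiation factors measured, 1 rose and 0 fell, with a median of 0.08. The member that rose was Eif6, which keeps the large subunit from joining too early, from 63.7 to 85.1 FPKM (0.41), and the lowest was Eif3g with 116 and 107 FPKM (-0.12). Of the 50 factors of ribosome biogenesis 4 rose and 1 fell, with a median of -0.01. The highest was Dimt1, a methylase of the small ribosomal RNA, from 4.90 to 6.14 FPKM (0.28), and the member that fell was Nop16, from 21.7 to 17.3 FPKM (-0.31).

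Of the 26 genes listed with RNA polymerases I and III, which make ribosomal and transfer RNA, 1 rose and 1 fell, with a median of -0.04. The list also holds transcription factors such as Ubtf and Myc. The subunit Polr2h, which all the nuclear polymerases share, rose from 17.1 to 21.9 FPKM (0.34), and Taf1b, of the selectivity factor of polymerase I, fell from 5.44 to 4.24 FPKM (-0.30). Of the 21 genes of mTOR and the control of translation 2 rose, 2 fell and the median was -0.04. Rps6ka3, a kinase of ribosomal protein S6, rose from 22.9 to 34.5 FPKM (0.57), and Rps6kb2, another such kinase, fell from 7.26 to 5.55 FPKM (-0.34). Of 13 common reference genes 3 rose and 1 fell, with a median of 0.15, and Gapdh of glycolysis was among those that rose, from 1050 to 1392 FPKM (0.41).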

How the data were processed

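RNA of cultured MCECs was sequenced as 1 library per condition. Each deposited file holds 33299 transcript entries as log2 of the normalized FPKM plus 1. By their methods the authors had the reads trimmed, aligned with TopHat, counted with BEDTools and turned into FPKM with Cufflinks, and normalized them with edgeR in R by a step called quantile normalization. The submitters' processing notes give mm10, and versions are not given in the sources used here. The deposited libraries do not share their quantiles, so the values were used as they are, and quantile normalization was an alternative.

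The 111 entries of 89 member symbols were summed per symbol as FPKM. A symbol was tested at a mean log2 value of at least 1, the pseudocount was 1 FPKM, and the threshold was 1.2-fold. Members and lists were chosen with earlier results of these data known. Genes were named if they had the 5 highest or lowest log2 ratios or the 3 highest or lowest levels of a subunit, were paralogs, stalk, fusion or 5S genes, or had the highest or lowest ratio of a list. The values of 3 genes under this rule are not reported here. Coordinates, lengths and windows of 50 nt came from GENCODE M21, promoters from RefSeq (GRCm38.p6). Nop53, Utp4 and Rack1 were matched by older symbols. The worth of a fragment was read from the low values among 2189 genes with a single transcript over 1500 nt. These were 409 values with HBS and 361 with PC-NVs. The fold calculation was tested on simulated data. The tools were Biopython 1.88, matplotlib 3.10.9, scipy 1.17.1, pandas 2.3.3 and numpy 2.4.6 in Python 3.11.15. Alternatives covered scaling, the pseudocount, the filter, the sum of entries, the threshold, transcript length and the members.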

Additional observations from a re-analysis of the deposited data

Results flagged for a closer look

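Outside of the members, symbols of ribosomal protein pseudogenes had values in both libraries. Rpl34-ps1 was at 1101 FPKM with HBS and 1086 FPKM with PC-NVs, above its gene Rpl34. Rpl14-ps1 had 17.0 and 20.1 FPKM, Rps15a-ps6 had 8.05 and 9.48 FPKM, and Rpl31-ps12 had 3.56 and 4.22 FPKM. Rps19-ps3 had 2.36 and 3.52 FPKM and Rps15a-ps4 had 2.32 and 2.09 FPKM. There were no control samples for these symbols, and whether the reads came from the pseudogenes or from their genes was not tested.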

How the results depend on the processing

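As deposited, the median log2 ratio was 0.01 for the large and 0.02 for the small subunit, 2 core genes were higher and 0 lower, and the core genes took 17.2% (HG+HBS) and 15.9% (HG+PC-NVs) of the summed FPKM. Quantile normalization gave medians of -0.18 and -0.14, 1 higher, 7 lower and shares of 17.4% and 15.7%, and equal summed FPKM gave -0.14 and -0.13, 1 higher and 3 lower. The number higher was 1 with the filter on the mean log2 value raised to 3, with transcripts of at least 500 nt and at 1.5-fold, 9 at 1.1-fold, and 0 with copies summed or at 200 FPKM or more only, the last pair of settings chosen after seeing the data. The number lower was 1 with the highest entry only and with all members. In the order HG+HBS and HG+PC-NVs, the shares were 17.7% and 16.2% with the highest entry only, 17.9% and 16.5% with all members, 12.2% and 11.1% with transcripts of at least 500 nt, 18.4% and 16.9% with copies summed, and 17.1% and 15.8% at 200 FPKM or more. Of 81 alternative values of such summaries, 53 stayed within the counting error or within 1.5 times the count and 28 moved. Of the 26 alternative medians 7 had the opposite sign. For single genes 228 of 312 stayed, and 27 changed sign, none of them a gene past the threshold as deposited. Causes were not tested beyond what the settings change by construction. No paired analysis was possible because each condition is a single library, which also leaves no replicate to leave out. Depth limits Rps27, Rpl37rt and Rpl39l, which rest on at most 27 fragments.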
